A study of Homo sapiens with 8 samples.

Results

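The 10 genes described here make, break down and regulate the polyamines putrescine, spermidine and spermine. They were chosen by name and each was measured by the probe set with its gene symbol alone that was brightest over all 8 arrays. All 10 of 10 were found, among 19775 genes with such a probe set on the arrays, and all 10 passed the filter on dim values. The cells were RL, an established human B lymphoma line that carries t(14;18), grown for 14 days as multicellular aggregates of lymphoma cells (MALC). Cells were separated by pyronin Y, an RNA dye, so the sort itself selects on RNA content. Pyronin Y dull cells were sorted as quiescent (4 arrays) and pyronin Y bright cells as cycling (4 arrays), so that all arrays share the cell line, the culture time and the stain. Both groups come from a single line, and separate cultures are not named in the labels. The p-values therefore measure the spread among the 8 arrays alone, part of which may be technical.

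Polyamines are small positively charged molecules that bind nucleic acids, and dividing cells need them for growth and protein synthesis. Ornithine decarboxylase makes putrescine, and spermidine and spermine are built from it with aminopropyl groups taken from decarboxylated S-adenosylmethionine. Acetylation and oxidation lead back down the chain, and antizyme, whose own translation is raised by polyamines, binds ornithine decarboxylase and sends it to the proteasome. Spermidine is also the donor for hypusine, the modified residue of the translation factor eIF5A.

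Values are MAS5 intensities as the authors scaled them, on a linear scale, with array medians between 72.2 and 113.8. For the tests the arrays were centred on their median log2 value. Centring lowered every log2 difference, quiescent minus cycling, by 0.41, so that the median of the 11678 genes tested was −0.33 centred, against 0.08 as deposited and −0.04 after quantile normalization. All 3 scalings are given for each gene, and a difference is always relative to the other transcripts on an array, not an amount per cell. The cells matched their labels: the 6 proliferation markers summed to 6792 to 8743 on quiescent and 28515 to 38208 on cycling arrays, and CDKN1B and TXNIP together to 24826 to 32993 on quiescent and 8734 to 12343 on cycling arrays. The 5 measured B cell markers lay between 1660 and 26572 in every array, whereas no T cell, macrophage or stromal marker exceeded 279.6. As a measure of RNA quality, the ACTB controls had a log2 ratio of 3′ over 5′ signal of 2.57 ± 0.18 on quiescent and 2.02 ± 0.20 on cycling arrays (SD, n = 4 each, two-sided exact permutation p = 0.0286, the smallest that 70 assignments allow, 0.0381 adjusted over 4 ratios). The ACTB ratio of 3′ over middle signal was 1.13 ± 0.09 and 0.82 ± 0.13, and the GAPDH ratio of 3′ over 5′ signal 0.11 ± 0.02 and −0.05 ± 0.09. Both gave the same p-values in that test. The GAPDH ratio of 3′ over middle signal was 0.05 ± 0.07 and 0.04 ± 0.03 (exact permutation p = 0.914). The part of RNA quality in the differences given below was not tested.

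Of the 4 synthesis genes, ODC1, SRM and SMS fell in quiescent cells under all 3 scalings. AMD1 did not pass under any of them in the test without covariates, and its call depends on how the sample numbers are treated. The threshold was an adjusted p under 0.05 in limma, with Benjamini-Hochberg adjustment over all 11678 genes. Of all genes tested, 14.1% were lower and 2.74% higher under all 3 scalings.

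ODC1 encodes ornithine decarboxylase, the rate-limiting enzyme that makes putrescine. Its intensity was 15109, 14272, 13911 and 15818 in quiescent samples 1 to 4, against 32415, 24113, 30647 and 28510 in cycling samples 1 to 4. Every quiescent array lay below every cycling array, and the quiescent arrays lay closer together than the cycling arrays did, with means of 14778 ± 856 and 28921 ± 3581 (SD, n = 4 each). The log2 difference was −1.37 (SE 0.17, limma adjusted p = 1.44e-05), a level 2.59-fold lower, and it was −0.96 with the deposited scaling (adjusted p = 4.51e-05) and −0.91 after quantile normalization (2.34e-05).

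SRM, spermidine synthase, showed the largest difference of the 10 genes under each of the 3 scalings. It measured 1322, 911.6, 854.0 and 841.5 in quiescent samples 1 to 4, against 3581, 2401, 3049 and 3405 in cycling samples 1 to 4. The groups did not overlap, and quiescent sample 1 stood above the other quiescent arrays. SRM differed by −2.08 log2 units (SE 0.22, limma adjusted p = 2.97e-06), a level 4.24-fold lower, and it was −1.67 with the deposited scaling (4.21e-05) and −1.64 after quantile normalization (5.38e-05). Of all genes tested, 1.42% had a more negative difference than SRM, against 5.05% for ODC1 and 6.13% for SMS, centred and as deposited alike.

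SMS, spermine synthase, measured 4313, 3713, 3763 and 3256 in quiescent samples 1 to 4, against 9477, 5237, 6774 and 6978 in cycling samples 1 to 4. The groups did not overlap, and the gap was narrowest between quiescent sample 1 and cycling sample 2. SMS differed by −1.31 log2 units (SE 0.22, limma adjusted p = 1.94e-04), and it was −0.90 with the deposited scaling (1.60e-03) and −0.78 after quantile normalization (1.96e-03).

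AMD1, the S-adenosylmethionine decarboxylase that supplies the aminopropyl groups, measured 1700, 4740, 3684 and 3395 in quiescent samples 1 to 4, against 2317, 4129, 4492 and 5443 in cycling samples 1 to 4. The groups overlapped widely, and sample 1 was the lowest in both. AMD1 differed by −0.72 log2 units (SE 0.32, 95% interval −1.42 to −0.02, limma adjusted p = 0.107), and it was −0.30 with the deposited scaling (0.493) and −0.21 after quantile normalization (0.673). Without cycling sample 1 it passed in the centred values (−0.96, adjusted p = 0.0234). Without quiescent sample 1 it was −0.42 centred (limma adjusted p = 0.241) and −0.004 as deposited (0.991), and did not pass. AMD1 also passed in the centred values with the sample number fitted as a replicate block (limma adjusted p = 5.49e-03). The labels do not state that arrays of the same number are pairs. A fall as large as that of SMS or ODC1 lies inside its interval.

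**Figure D1:**
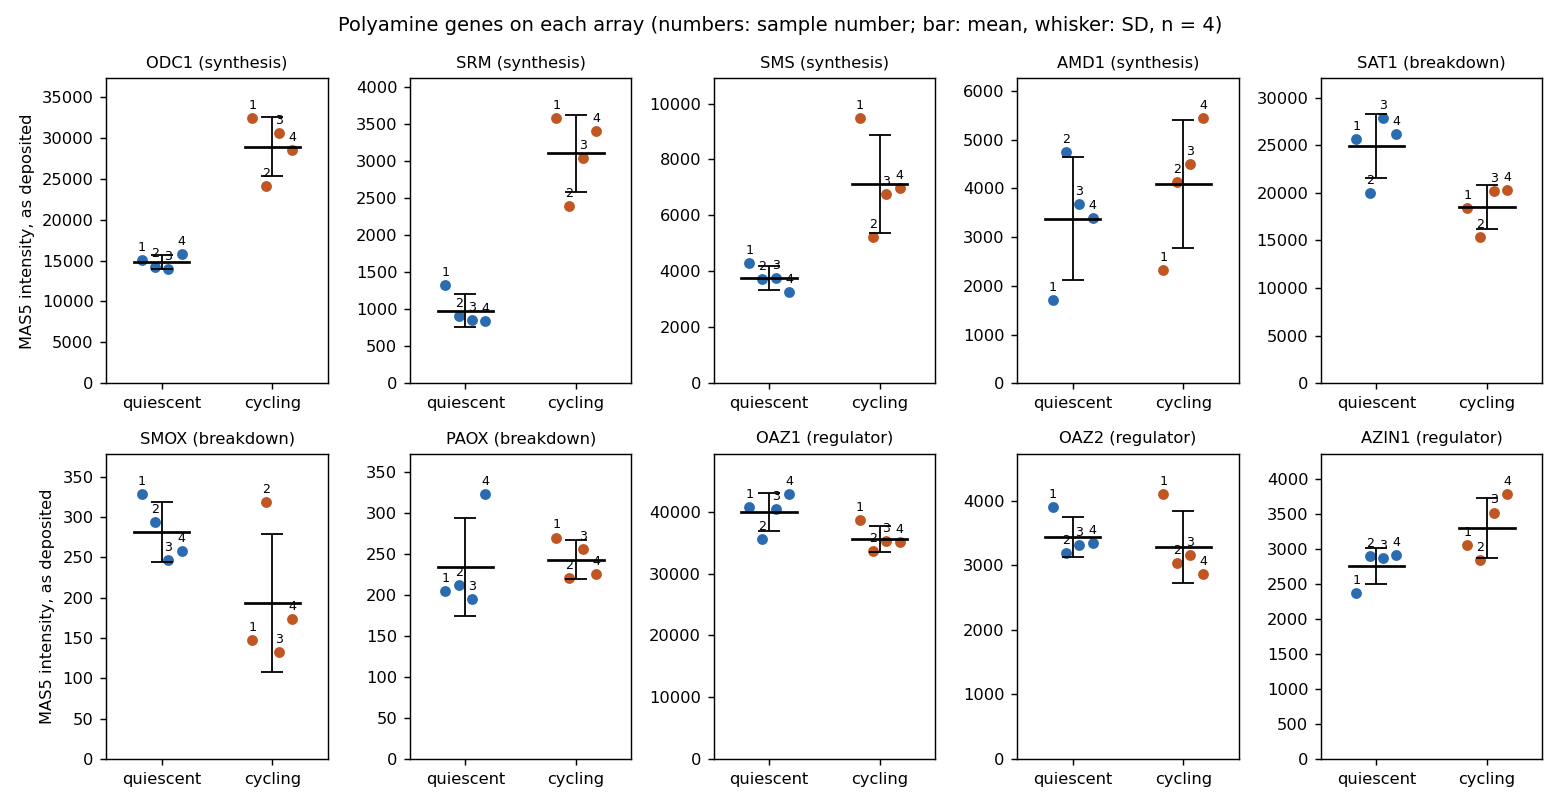
MAS5 intensity as deposited of each polyamine gene, quiescent arrays on the left (blue) and cycling arrays on the right (orange) of each panel, each axis from 0; points carry the sample number, and bars show mean and SD (n = 4). ODC1, SRM and SMS are the 3 genes with every quiescent array below every cycling array; AMD1 is lowest in sample 1 of both groups.

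Promoter windows from RefSeq (GRCh38.p14, 250 bases before to 50 after an annotated start) were matched by symbol for 7 of the 10 genes, in 10 windows. The E-box CACGTG, which reads the same on both strands and is the letter sequence that MYC with MAX is known to bind, was found 3 times in 2 of these windows. Of all 35116 windows, 7.26% hold it. Of the genes with a window, 8.77% hold it. Any window of the 10 genes on a single chromosome was left out of the search, whereas these shares include that chromosome. ODC1 is a known MYC target in mouse and human cells. The windows of ODC1 and SRM that hold the letters are shown because both genes fell, and that of SAT1, which does not hold them, because its differences lay on the other side of the median of all genes. CACGTG is in capitals. The ODC1 window belongs to the annotated start further downstream, on the minus strand at chr2:10447963-10448262, with the letters at −29 and 6 relative to that start. The SRM window lies on the minus strand at chr1:11059969-11060268, with the letters at −199. The SAT1 window lies on the plus strand at chrX:23782923-23783222.
ODC1: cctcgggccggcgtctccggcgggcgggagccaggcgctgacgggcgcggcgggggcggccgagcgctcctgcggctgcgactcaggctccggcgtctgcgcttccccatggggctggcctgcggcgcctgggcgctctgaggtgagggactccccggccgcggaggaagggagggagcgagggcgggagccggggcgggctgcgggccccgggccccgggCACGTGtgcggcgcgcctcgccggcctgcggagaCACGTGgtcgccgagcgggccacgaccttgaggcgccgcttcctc
SRM: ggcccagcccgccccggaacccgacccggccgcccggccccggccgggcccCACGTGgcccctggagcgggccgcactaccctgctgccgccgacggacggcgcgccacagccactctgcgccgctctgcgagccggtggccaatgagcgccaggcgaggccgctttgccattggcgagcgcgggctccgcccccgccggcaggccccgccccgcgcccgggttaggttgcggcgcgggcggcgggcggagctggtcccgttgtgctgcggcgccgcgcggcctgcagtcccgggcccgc
SAT1: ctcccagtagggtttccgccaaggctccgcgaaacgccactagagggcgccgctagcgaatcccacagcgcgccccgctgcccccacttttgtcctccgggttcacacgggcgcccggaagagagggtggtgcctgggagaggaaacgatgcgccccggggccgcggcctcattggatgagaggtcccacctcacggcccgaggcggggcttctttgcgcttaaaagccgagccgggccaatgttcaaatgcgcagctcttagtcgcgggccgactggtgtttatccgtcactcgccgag
The other ODC1 window does not hold CACGTG, and neither does that of SMS, a gene that fell as well. The windows of AMD1, OAZ1 and OAZ2 do not hold it either. A match describes letters in a window and is not a measured binding site. A part of MYC in these differences was not tested.

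None of the 3 breakdown genes passed in the centred values, where 32.5% of all genes were lower and 2.8% higher. SAT1 was higher in quiescent cells with the scaling as deposited and after quantile normalization, where 12.2% and 10.5% of all genes were higher.

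SAT1, the acetyltransferase that starts polyamine breakdown and export, measured 25678, 19983, 27829 and 26145 in quiescent samples 1 to 4, against 18353, 15350, 20178 and 20258 in cycling samples 1 to 4. All quiescent arrays but sample 2 lay above all cycling arrays, and sample 2 lay just below cycling samples 3 and 4. The log2 difference was 0.01 centred (SE 0.18, 95% interval −0.37 to 0.40, limma adjusted p = 0.971), 0.42 with the deposited scaling (SE 0.12, adjusted p = 0.0206) and 0.49 after quantile normalization (SE 0.10, adjusted p = 3.18e-03). With the deposited scaling it missed the threshold when quiescent sample 3 (0.0706) or 4 (0.0598) was left out, and likewise for cycling sample 2 (0.0517). Relative to the median of all genes the difference was 0.34 centred and as deposited and 0.53 after quantile normalization. A lower difference than that of SAT1 was found for 75.4% of all genes tested centred and as deposited, and 86.4% after quantile normalization.

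SMOX, spermine oxidase, which turns spermine into spermidine without acetylation, was dim. It measured 328.7, 293.7, 246.3 and 258.0 in quiescent samples 1 to 4, against 147.2, 318.5, 132.6 and 174.1 in cycling samples 1 to 4. The quiescent arrays lay above cycling samples 1, 3 and 4, and cycling sample 2 lay among them. SMOX differed by 0.21 centred (SE 0.25, limma adjusted p = 0.556), 0.63 with the deposited scaling (0.117) and 0.30 after quantile normalization (0.420). As deposited and without cycling sample 2 it was 0.90 and passed (adjusted p = 0.0134).

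PAOX, the oxidase that acts on acetylated polyamines, measured 204.9, 212.3, 195.0 and 322.8 in quiescent samples 1 to 4, against 269.7, 220.9, 255.2 and 225.5 in cycling samples 1 to 4. Quiescent sample 4 was the highest of all arrays and the other quiescent arrays were the lowest. PAOX differed by −0.49 centred (95% interval −1.01 to 0.03, limma adjusted p = 0.134), −0.08 with the deposited scaling (0.821) and −0.36 after quantile normalization (0.284).

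Of the 3 regulators, AZIN1 fell in the centred values and the antizymes did not pass under any of the 3 scalings. OAZ1, the main antizyme, measured 40773, 35662, 40455 and 42948 in quiescent samples 1 to 4, against 38674, 33694, 35307 and 35092 in cycling samples 1 to 4. The groups overlapped, with 3 quiescent arrays above every cycling array. OAZ1 differed by −0.25 centred (SE 0.15, limma adjusted p = 0.203), 0.16 with the deposited scaling (SE 0.08, 0.167) and 0.09 after quantile normalization (SE 0.06, 0.321), so its sign depends on the scaling. Without cycling sample 2 it passed in the centred values (−0.37, adjusted p = 0.0111).

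OAZ2, a second antizyme, measured 3898, 3195, 3310 and 3348 in quiescent samples 1 to 4, against 4104, 3036, 3150 and 2859 in cycling samples 1 to 4. The groups overlapped and sample 1 was the highest in both. OAZ2 differed by −0.34 centred (SE 0.18, limma adjusted p = 0.172), 0.07 with the deposited scaling (0.720) and 0.16 after quantile normalization (0.425). OAZ2 likewise passed without cycling sample 2 in the centred values (−0.46, adjusted p = 0.0317).

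AZIN1, the antizyme inhibitor, resembles ornithine decarboxylase without its activity and binds antizyme in its place. It measured 2374, 2891, 2865 and 2910 in quiescent samples 1 to 4, against 3049, 2847, 3519 and 3785 in cycling samples 1 to 4. As deposited, cycling sample 2 lay among the quiescent arrays, and after centring the groups did not overlap. AZIN1 differed by −0.67 log2 units centred (SE 0.19, limma adjusted p = 0.0107), −0.25 with the deposited scaling (0.175) and −0.17 after quantile normalization (0.363), so the call of this probe set rests on the centring.

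Counted together, 4 of the 10 genes were lower and 0 higher in the centred values, where the background was 32.5% and 2.8% of all genes. As deposited 3 were lower and 1 higher, with 15.4% and 12.2% of all genes, and after quantile normalization 3 and 1, with 16.4% and 10.5%. The share of genes called in the list as a whole was thus close to the background in the centred values. The median log2 difference was −1.34 for the 4 synthesis genes, 0.01 for the 3 breakdown genes and −0.34 for the 3 regulators in the centred values, beside −0.33 for all genes. As deposited the medians were −0.93, 0.42 and 0.07, beside 0.08 for all genes. In the intensities as deposited 3 of the 10 genes had all quiescent below all cycling arrays and 0 the reverse, against 15.4% and 13.3% of all genes. After centring 4 did, with AZIN1, and 0 the reverse, against 28.3% and 3.04%. After quantile normalization 3 lay below and SAT1 above, against 16.6% and 11.1%.

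**Figure D2:**
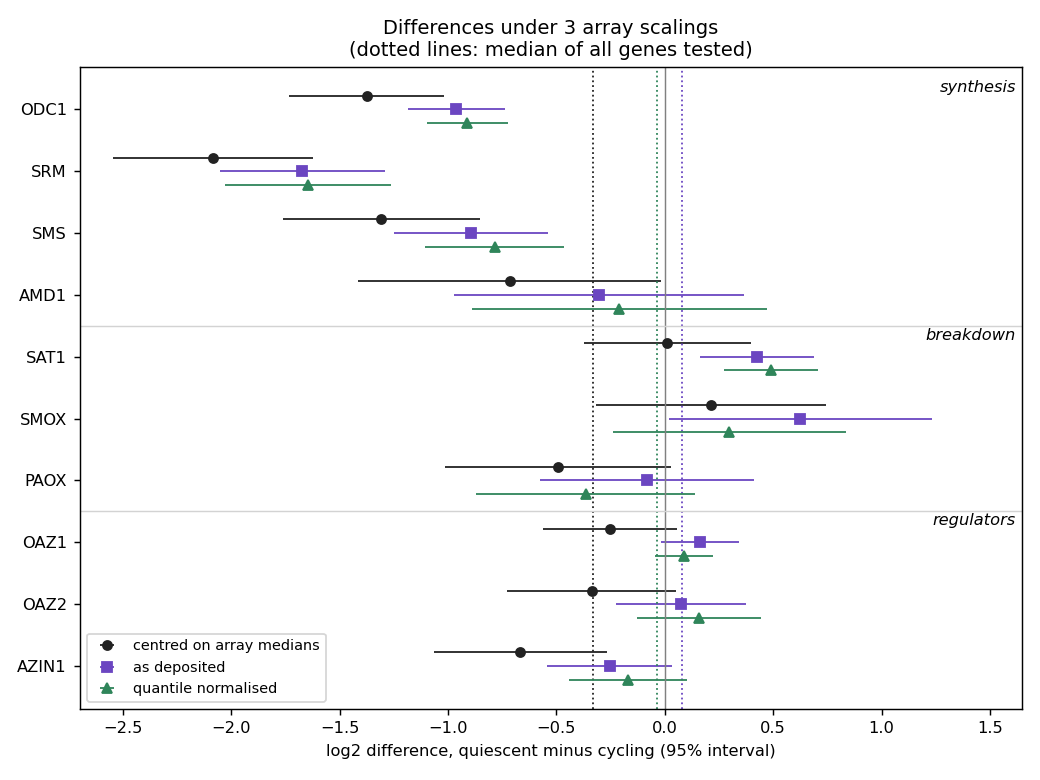
Log2 difference, quiescent minus cycling, with its 95% interval for each polyamine gene (rows, by role) under 3 array scalings (symbols); dotted lines mark the median of all 11678 genes in each scaling. ODC1, SRM and SMS lie left of all 3 dotted lines with their whole intervals, SAT1 moves between 0.01 and 0.49 with the scaling, and OAZ1 and OAZ2 change sign.

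The balance of synthesis and breakdown was compared within arrays, where a scaling constant cancels. In these ratios each breakdown gene was set against each synthesis gene on the same array, and the mean of the cycling arrays was taken off. SAT1 over ODC1 was 1.41, 1.13, 1.64 and 1.37 log2 units above the cycling mean in quiescent samples 1 to 4, against −0.18, −0.01, 0.04 and 0.15 in cycling samples 1 to 4. The groups did not overlap, and the quiescent mean of 1.39 ± 0.21 (SD, n = 4) is a 2.61-fold higher ratio. The ratio of SAT1 to SRM was 2.10 ± 0.37 log2 units above the cycling mean, or 4.28-fold, and that of SAT1 to SMS 1.32 ± 0.27, or 2.50-fold.

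SMOX over ODC1 was 1.37 to 1.79 on quiescent arrays, against −0.54 to 1.07 on cycling arrays, where cycling sample 2 gave the highest value. PAOX over ODC1 was 0.69 to 1.28 on quiescent arrays, against −0.09 to 0.12 on cycling arrays. SMOX and PAOX did not pass on their own, and these ratios carry the fall of ODC1.

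Of the 12 pairs, the 9 with ODC1, SRM or SMS as the denominator did not overlap, all with higher ratios in quiescent cells, and the 3 with AMD1 overlapped. The same held for 69.1% of all genes set over ODC1, 88.2% over SRM, 53.6% over SMS and 7.14% over AMD1, so these counts follow the denominators and are no result about the breakdown genes. The median gene had a ratio 2.06-fold higher over ODC1, 3.37-fold over SRM and 1.97-fold over SMS, beside 2.61-fold, 4.28-fold and 2.50-fold for SAT1. SMOX had 3.01-fold, 4.92-fold and 2.87-fold. PAOX had 1.84-fold, 3.01-fold and 1.76-fold, each below the median gene. SAT1 over AMD1 was −0.16 to 1.68 on quiescent arrays, against −0.34 to 0.75 on cycling arrays. The median of the synthesis genes minus that of the breakdown genes, per array and relative to the cycling mean of each gene, was −1.54, −1.08, −1.41 and −1.48 in quiescent samples 1 to 4, against 0.20, −0.17, −0.04 and 0.13 in cycling samples 1 to 4. It was lowest in size in quiescent sample 2 among the quiescent arrays, and the groups lay apart by more than their spread of 0.21 and 0.17 (SD, n = 4 each). Like the ratios, this score carries the fall of the synthesis genes. In the centred values their median difference was −1.34 and that of the breakdown genes 0.01, beside −0.33 for all genes. No test was made of this score, since the genes were chosen with results known.

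The 3 regulators were set against ODC1 in the same way. OAZ1 over ODC1 was 1.01 to 1.23 log2 units above the cycling mean on quiescent arrays, against −0.11 to 0.17 on cycling arrays, a 2.18-fold higher ratio. OAZ2 over ODC1 was 2.05-fold and AZIN1 over ODC1 1.63-fold higher, beside 2.06-fold for the median gene. None of the 3 pairs overlapped, like 69.1% of all genes over ODC1. The ratio of antizyme to its inhibitor, OAZ1 over AZIN1, was 0.18 to 0.66 on quiescent arrays, against −0.23 to 0.22 on cycling arrays, with overlap.

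**Figure D3:**
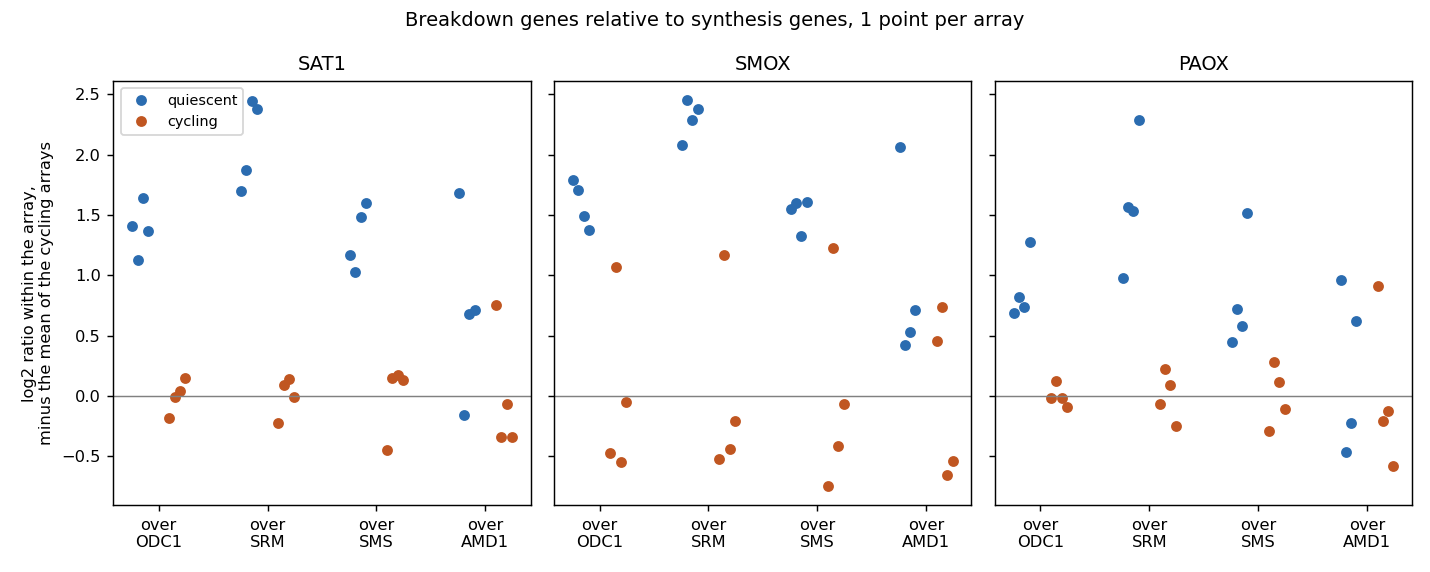
Log2 ratio of each breakdown gene (panels) over each synthesis gene (horizontal axis) on the same array, minus the mean of the cycling arrays; blue points are quiescent and orange points cycling arrays, 1 point per array. Ratios over ODC1, SRM and SMS do not overlap between groups, as for 69.1%, 88.2% and 53.6% of all genes, and ratios over AMD1 do.

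The other probe sets of the same genes served as a check. The 10 genes had 22 probe sets with a single symbol, of which 18 passed the filter and 4 did not. Of these 18, 7 were lower and 0 higher in the centred values, with 23.8% and 4.26% of all 27307 probe sets above the filter. As deposited 4 were lower and 3, all of SAT1, higher, with 10.8% and 16.3% of all. ODC1, SRM and SMS had 1 probe set each and so have no such check.

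The dimmer AMD1 probe set had a log2 difference of −0.86 after centring, where limma called it (adjusted p = 0.0311 over the 27307 probe sets). As deposited it did not pass (−0.45, 0.223). It was lowest in sample 1 of both groups as well, at 1473 in the quiescent and 2051 in the cycling fraction. The 2 other SAT1 probe sets differed by 0.05 and 0.23 centred and by 0.46 (limma adjusted p = 8.82e-03) and 0.64 (0.0395) as deposited, so that all 3 SAT1 probe sets were higher as deposited and none passed centred.

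The dimmer AZIN1 probe set above the filter was lower in both scalings, by −0.76 centred (limma adjusted p = 2.85e-03) and −0.35 as deposited (0.0434). An AZIN1 probe set under the filter measured 25.3 to 36.3 on quiescent and 78.9 to 98.4 on cycling arrays. For OAZ2 the dimmer probe set measured 1042, 889.0, 1208 and 1068 in quiescent samples 1 to 4, against 1273, 1277, 1420 and 1322 in cycling samples 1 to 4. These groups did not overlap, unlike those of the brighter probe set. Its difference was −0.75 centred (limma adjusted p = 6.27e-03) and −0.34 as deposited (0.0902), so the OAZ2 probe sets disagree in the centred call, and their signs differ as deposited.

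The PAOX probe sets disagree too. The brightest differed by −0.49 and the next, at a mean of 126.0 in quiescent and 87.4 in cycling cells, by 0.39, with neither called. A PAOX probe set under the filter measured 34.7 to 45.8 on quiescent and 61.4 to 231.5 on cycling arrays. No direction can be given for PAOX from these values.

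**Figure D4:**
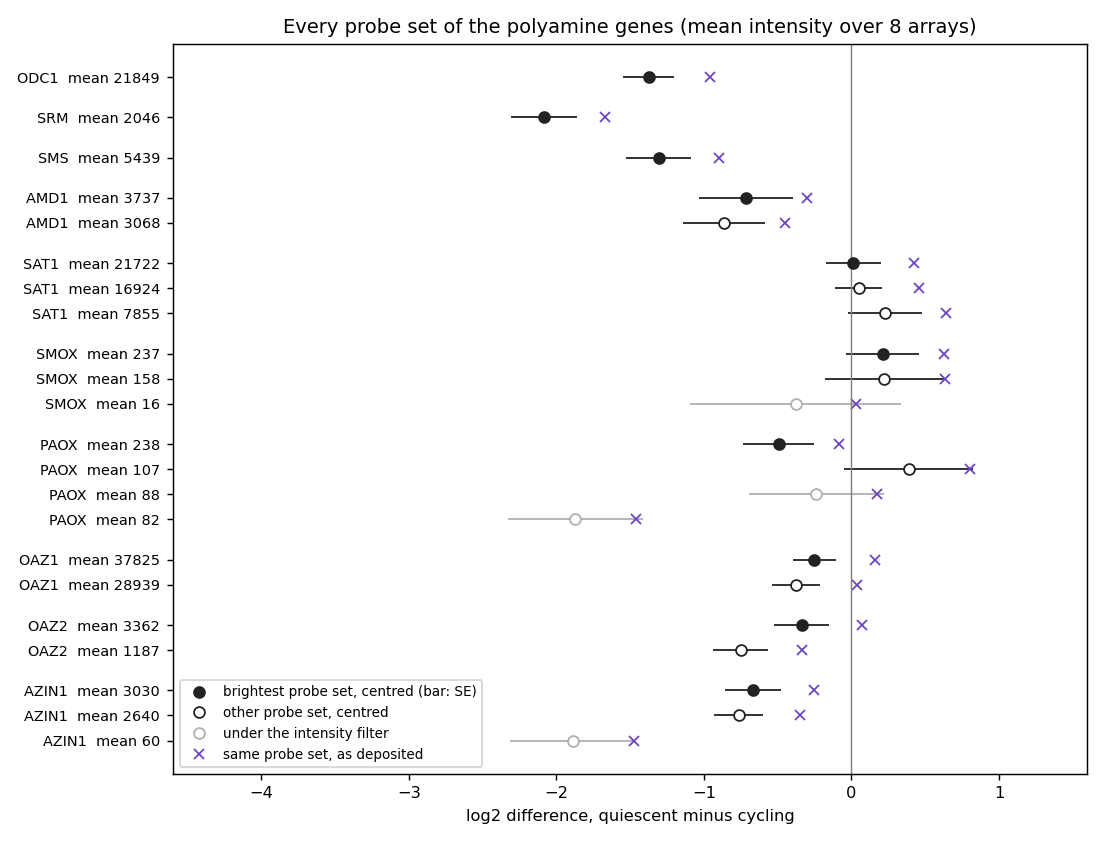
Log2 difference, quiescent minus cycling, for each of the 22 probe sets of the polyamine genes (rows, with the mean intensity), centred (circles, bars show the SE) and as deposited (crosses); filled circles are the probe sets used for the gene, grey circles lie under the intensity filter. All 3 SAT1 probe sets lie at or right of 0, and the PAOX probe sets spread over both sides.

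Of 32 genes next to the polyamine pathway that were listed by function, 24 were tested, 7 lay under the filter and 1 lacked a usable probe set. Of the 24, 10 were lower and 1 higher in the centred values, with 32.5% and 2.8% of all genes, and 6 were lower and 4 higher as deposited, with 15.4% and 12.2%. Under all 3 scalings 6 were lower and 1 was higher, with 14.1% and 2.74% of all genes. Their median difference was −0.70 centred and −0.29 as deposited, beside −0.33 and 0.08 for all genes.

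In the supply of ornithine and arginine, 2 of 5 tested genes fell, and both did so under all 3 scalings, with 32.5% of all genes lower centred and 14.1% under all 3. ALDH18A1, which makes the precursor of ornithine and proline from glutamate, averaged 928 ± 133 in quiescent and 2321 ± 620 in cycling cells (SD, n = 4 each), a log2 difference of −1.71 (limma adjusted p = 2.85e-05). SLC7A1, the carrier for arginine and other cationic amino acids, averaged 4307 ± 99.6 and 6087 ± 548, a difference of −0.91 (adjusted p = 6.73e-04). The dimmer SLC7A1 probe sets had −0.65, −0.95, −0.57 and −0.56 centred, where only that at −0.95 passed (limma adjusted p = 4.31e-03). As deposited they had −0.24, −0.53, −0.16 and −0.14 and did not pass. ARG2, the mitochondrial arginase that makes ornithine from arginine, was not called centred (0.03) and was higher as deposited (0.45, adjusted p = 0.0420). AZIN2, an antizyme inhibitor, had −0.45 centred and did not pass. AGMAT was dim, with −0.69 centred, and did not pass (limma adjusted p = 0.0826). Its other probe set above the filter had −2.23 centred (limma adjusted p = 7.99e-03) and −1.82 as deposited (0.0325). The call of AGMAT thus rests on the choice of probe set.

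In the methionine cycle and the salvage of methylthioadenosine, the side product of SRM and SMS, 5 of 7 tested genes fell in the centred values and 3 under all 3 scalings, beside the same 32.5% and 14.1% of all genes. AHCY, which clears S-adenosylhomocysteine, averaged 1408 ± 460 in quiescent and 2671 ± 673 in cycling cells, a log2 difference of −1.35 (limma adjusted p = 4.99e-04). The salvage enzymes ENOPH1 and APIP fell too, with log2 differences of −1.26 and −1.10. MTAP and ADI1 had −0.76 and −0.75 and did not pass as deposited (−0.35 and −0.34). Of the dimmer MTAP probe sets 3 had larger centred differences, of −1.51, −1.54 and −1.22, and the first and second of these passed as deposited too (−1.10, limma adjusted p = 3.42e-03, and −1.13, 4.83e-03). The dimmest tested had −0.69 centred and did not pass. MAT2A, the synthetase of S-adenosylmethionine, had −0.66 (adjusted p = 0.0811) and its partner MAT2B −0.03, and MAT2B was higher as deposited (0.38, adjusted p = 0.0370). The dimmer MAT2A probe set passed centred (−0.71, limma adjusted p = 0.0176) and did not pass as deposited (−0.30, 0.218).

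Of the 3 tested genes of eIF5A and its hypusination, EIF5A fell under all 3 scalings, where 14.1% of all genes did. It averaged 3600 ± 959 in quiescent and 6737 ± 2010 in cycling cells, a log2 difference of −1.30 (limma adjusted p = 1.60e-03), and passed as deposited as well (−0.89, 9.90e-03). DHPS, which transfers the aminobutyl group of spermidine to eIF5A, had −0.06 and DOHH, which completes hypusine, −1.66 with an SE of 0.76, and neither passed. As deposited DHPS had 0.36 (limma adjusted p = 0.122). Its dimmer probe sets had 0.06 and 0.11 centred and did not pass. As deposited they had 0.47 (limma adjusted p = 0.0594) and 0.52 (0.0230), so the latter passed there.

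Among transport genes, 2 of 4 tested were lower, SLC3A2 and ATP13A3, at −0.71 and −0.67 centred, where 32.5% of all genes were lower, and neither passed as deposited (−0.30 and −0.26). The other ATP13A3 probe set had −0.35 centred and did not pass. ATP13A3 is a polyamine transporting ATPase, and SLC3A2 is the heavy chain of amino acid carriers. The lysosomal polyamine exporter ATP13A2 (−1.06, SE 0.58) and SLC18B1 (0.35, SE 0.53) were dim and did not pass.

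SAT2, a paralogue of SAT1, was the 1 neighbour that was higher under all 3 scalings. It measured 3409, 2326, 2927 and 3040 in quiescent samples 1 to 4, against 1336, 1820, 1681 and 1407 in cycling samples 1 to 4. All quiescent arrays lay above all cycling arrays in the deposited intensities, and the groups overlapped after centring. The log2 difference was 0.49 centred (SE 0.18, limma adjusted p = 0.0417), 0.90 with the deposited scaling (9.67e-04) and 0.95 after quantile normalization (7.30e-04). In the centred values it did not pass when quiescent sample 1, 3 or 4 or cycling sample 1 or 4 was left out. Of the 4 transcription factors listed none passed centred, with MAX at −0.06, HIF1A at −0.39 and NFE2L2, a regulator of antioxidant genes, at 0.08. NFE2L2 was higher with the deposited scaling (0.49, limma adjusted p = 0.0325) and by quantile normalization (0.56, 0.0203), and MAX by quantile normalization alone (0.48, 0.0272).

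**Figure D5:**
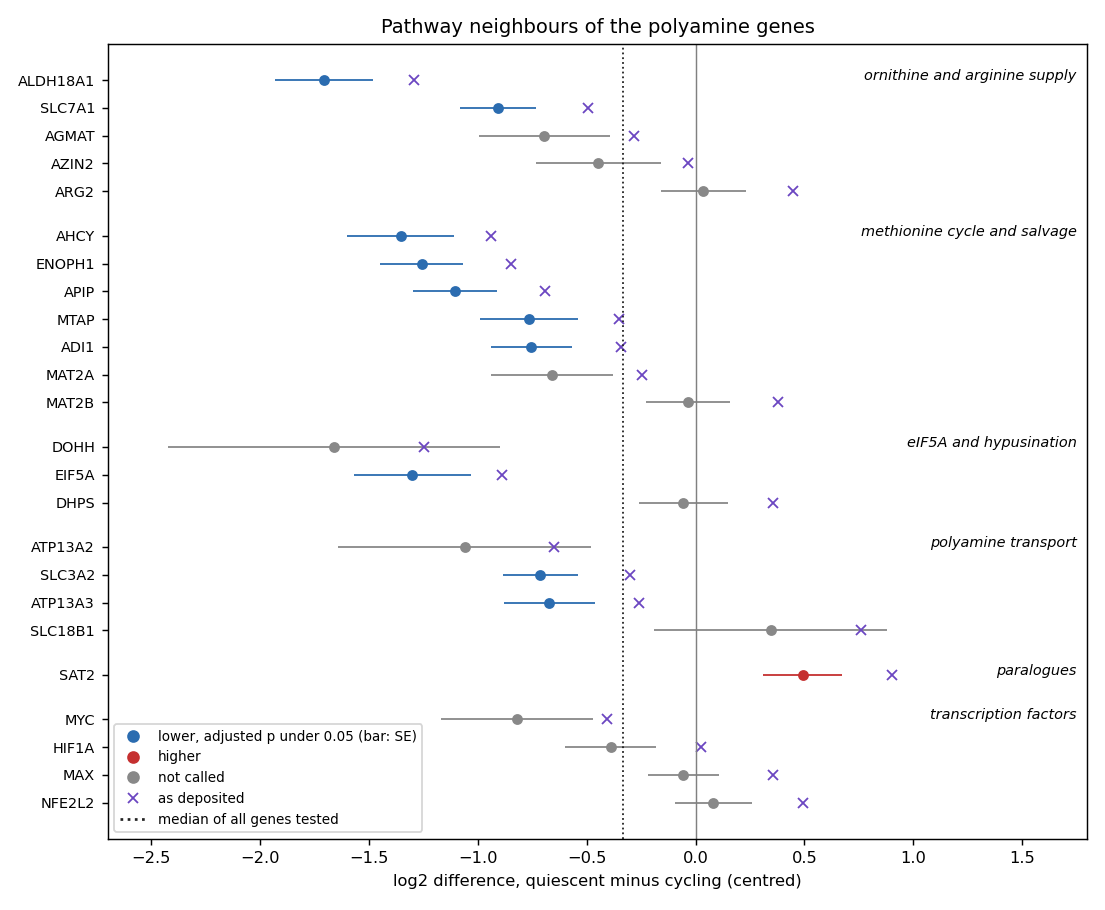
Log2 difference, quiescent minus cycling, for the 24 tested neighbours of the pathway (rows, by list), centred (circles, bars show the SE) and as deposited (crosses); blue is called lower and red called higher in the centred values. ALDH18A1, AHCY, ENOPH1, APIP and EIF5A have differences of −1.10 to −1.71, and SAT2 at 0.49 is the called gene on the right.

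The genes whose profile over the 8 arrays lay nearest to that of ODC1, after each gene's mean was taken off, were DLD, APOO and VBP1, with root mean square distances of 0.05, 0.07 and 0.08 log2 units, against a median of 0.62 over all 11677 other genes. Nearest to SAT1 were SIRT6, GTPBP2 and LST1, at 0.07, 0.08 and 0.10, against a median of 0.43. These distances describe likeness on 8 arrays.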

How the data were processed

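Total RNA of 4 quiescent and 4 cycling samples, grouped by their titles, was hybridised to Affymetrix arrays. The deposited values are intensities on a linear scale, made with MAS5 per the submitters' processing notes, version not given in the sources used here. From the values, the authors had scaled each array to a mean of 500.1 after trimming 2% at each end. Detection calls were not used here, so dim values cannot be told from background, and the number of arrays limits the precision.

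Intensities under 1 were set to 1, taken to log2 and centred on array medians over probe sets other than the 62 controls. Gene names came from GEO's annotation of the platform, possibly outdated (41097 with 1 symbol, 1801 with several, the rest unlisted). A total of 41043 matched RefSeq genes of GRCh38.p14 and no symbol changed. A SAT1 probe set that also names ZSWIM8 was not used. Each gene was represented by its brightest probe set. Genes under the median, an intensity of 83.3, were left out (8097), and 11678 were tested by limma 3.58.1 (R 4.3.3), using lmFit and then eBayes with its trend and robust options and no covariates, at an adjusted p under 0.05 (Benjamini-Hochberg over all genes). The test was tried on simulated data. Intervals are 95% intervals of that fit. Control ratios were compared by exact permutation tests. Promoter letters were searched in Python 3.11.15 with pandas 2.3.3, and plots were drawn in matplotlib 3.10.9.

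The 10 genes and all lists were chosen with earlier results of these data known. Named are all 10 genes, every neighbour called in the centred values, up to 2 others per list by brightness, and the 3 genes nearest to ODC1 and to SAT1. NFE2L2 and AGMAT were added after their values were seen. Alternatives were the deposited scaling, quantile normalization, centring on the genes tested, no filter, a filter at the 75th percentile, 32 added before log2, eBayes without trend and robust, a replicate block, the mean of all probe sets and leaving out each array.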

Additional observations from a re-analysis of the deposited data

Results flagged for a closer look

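Within each group of 4 arrays, a sample was marked where it stood far from the other 3 relative to the whole range of the group. Of 20 groups checked, 3 were marked, and chance marks about 1 in 20. SRM in quiescent sample 1 measured 1322, against 841.5 to 911.6 in the other quiescent arrays. PAOX in quiescent sample 4 measured 322.8, against 195.0 to 212.3 in the others. AZIN1 in quiescent sample 1 measured 2374, against 2865 to 2910 in the others. Without quiescent sample 1 the centred log2 difference of SRM was −2.24 (limma adjusted p = 8.55e-07) and that of AZIN1 −0.60 (0.0327).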

How the results depend on the processing

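ODC1, SRM and SMS were lower and passed under every alternative run, at −1.55 to −0.90, −2.29 to −1.60 and −1.53 to −0.75. With the scaling as deposited, quantile normalization and centring on the genes tested, 1802, 1913 and 1704 of all genes were lower and 1430, 1230 and 1480 higher, 1 polyamine gene (SAT1) was higher, and 6 neighbours were lower under each and 4, 5 and 4 higher. Under these scalings OAZ1 had 0.161, 0.0902 and 0.170 and OAZ2 0.0747, 0.158 and 0.0828, the reverse of their centred sign, and AZIN1 no longer passed. Which scaling is nearer the amounts of RNA was not tested. No neighbour was higher (0) without the filter or without trend and robust. SMOX gave no value with the mean of all probe sets, and SMOX and PAOX none with the stricter filter. With each array left out in turn, 2945 to 4536 genes were lower and 223 to 358 higher, 4 to 6 polyamine genes lower and 0 higher, 9 to 13 neighbours lower and 0 to 1 higher. SAT1 ranged over −0.17 to 0.12, and was negative without quiescent sample 1 or 3 or cycling sample 2. The difference in the GAPDH ratio of 3′ to 5′ probe sets ranged over 0.125 to 0.185. That of 3′ to middle probe sets ranged over −0.0193 to 0.0252 around a difference of 0.004. The synthesis minus breakdown difference of −1.35 ranged over −1.44 to −1.25. After quantile normalization of all arrays it was −1.15. Leaving out each array as deposited was added after seeing the data. The sample numbers did not pair the fractions by the criterion used, which asked a minimum correlation of every same-numbered pair. These correlations were 0.34, 0.20, 0.11 and 0.04, and number 4 fell short. Arrays of different numbers across the fractions gave −0.17 to 0.14. Both arrays of number 1 and both of number 2 correlated best with their own number, and neither array of number 4 did, which is a hint from the data and not the design. With the sample number as a replicate block, 4443 genes were lower and 465 higher, and 6 polyamine genes were lower, with AMD1 (adjusted p = 5.49e-03) and OAZ1 (0.0453) added. Dim genes, such as SMOX and PAOX, are limited by signal near background.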

Other observations

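AMD1 was lowest in sample 1 of both fractions, and so were AZIN2, MAT2A, SLC18B1, MYC, MAX, NFE2L2 and HIF1A. SRM, SMS, OAZ2, ALDH18A1, AHCY, APIP, EIF5A, DHPS, DOHH and ATP13A2 were instead highest in sample 1 of both. The share of all genes that do either was not counted. MAT2A, which makes the substrate of AMD1, measured 4047 in quiescent sample 1, against 6261 to 10910 in the other quiescent arrays, and 4829 in cycling sample 1, against 8672 to 9443 in the other cycling arrays. MYC, the transcription factor known to act on ODC1, was chosen here after its values were seen. It measured 1747 in quiescent sample 1, against 3179 to 3942 in the others, and 2249 in cycling sample 1, against 3323 to 5957 in the others. MYC had a log2 difference of −0.82 centred and did not pass (limma adjusted p = 0.0926).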
